A study of Homo sapiens with 3 samples.

Results

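The genes examined here form the core switch that takes a cell from G1 into S phase: the cyclins CCND1, CCND3, CCNE1 and CCNE2, the kinases CDK2, CDK4 and CDK6, the transcription factors E2F1 and E2F8, and the pocket protein RB1. They were taken by gene symbol, and all 10 were found among the 44591 genes of the deposited table. The cells were Caki-1, a human renal carcinoma line in long use, which the study describes as carrying wild-type p53. Each culture was transfected with si-Control, a non-targeting siRNA, or with 1 of 2 siRNAs against RBCK1 (also named HOIL-1), called si-RBCK1 #1 and si-RBCK1 #2. Each condition is held by 1 library of the 3, called the si-Control, #1 and #2 libraries below, so the differences between them lack a replicate check and carry no p-value. As separate reagents, the 2 siRNAs were not averaged.

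In G1, D-type cyclins bind CDK4 and CDK6, and these kinases begin to phosphorylate RB1, which otherwise holds E2F transcription factors inactive. Freed E2F1 drives the genes of E-type cyclins and of DNA replication, and cyclin E with CDK2 completes the phosphorylation of RB1, so that the switch feeds itself. E2F8 is an atypical E2F that is itself made at the G1 to S boundary and represses E2F target genes later in S phase. In renal carcinoma, CCND1 is known as a gene that responds to loss of VHL through HIF2A.

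The cyclins and the E2F genes were higher, and CDK4, CDK6 and RB1 were lower, with both siRNAs than with si-Control. CCNE2, the E-type cyclin with the lower level, was 3.42-fold and 3.86-fold higher in RPKM, and E2F1 was 2.58-fold and 2.38-fold higher. CCND3 was 2.02-fold and 2.29-fold higher. CDK6 had 31.1% (#1) and 72.1% (#2) of its si-Control level. In bulk libraries, a different share of cells in a cell cycle phase and a different amount of RNA per cell cannot be told apart. By flow cytometry, the study reported a larger share of cells in G0/G1 and a smaller one in G2/M with RBCK1 siRNA. That was measured at an earlier time after transfection than the RNA. A part of phase shares in the values here was not tested. The CCND1 values listed in the table cannot be taken as they stand, as set out below.

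RPKM divides the reads of a gene by its length and by the size of the library, and the library totals were 36926834 (si-Control), 40442939 (#1) and 36344428 (#2). For each gene, the log2 ratio to si-Control was taken on the log2(RPKM + 1) scale, which understates changes of low genes. Whole read numbers recovered from the RPKM values gave a 95% interval of the log2 ratio without the pseudocount, and this interval covers counting error only, not differences between cultures. Averaged over the libraries, all 10 genes reached 1 RPKM, as did 12403 genes in all. E2F8 was at 0.894 RPKM in the si-Control library and reached that mean only through its higher si-RBCK1 values. It is kept in the counts and medians below. RBCK1 itself was at 33.3 RPKM in the si-Control library, 9.97 RPKM in the #1 library and 12.3 RPKM in the #2 library, so that the target was at 29.9% and 36.8% of si-Control. Of 8 renal epithelial markers, 4 reached a mean of 1 RPKM, with PAX8 at 82.5 to 124 RPKM, KRT8 at 65.6 to 238 RPKM and KRT18 at 95.3 to 172 RPKM, while PAX2, EPCAM, CDH16 and KRT19 stayed below that mean. Of 9 markers of leukocytes, endothelium and fibroblasts, only CD68 (41.8 to 52.3 RPKM) and COL1A1 (3.21 to 4.68 RPKM) reached it.

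**Figure D1:**
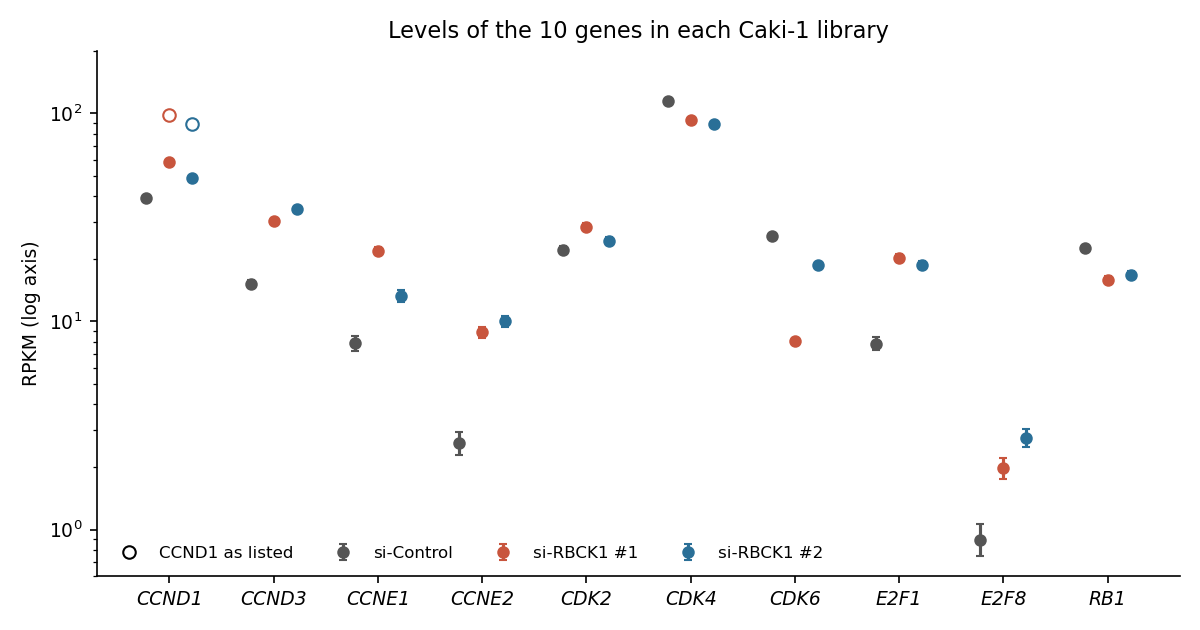
RPKM (log axis) of the 10 genes in the 3 libraries, with 95% counting intervals as bars that are often smaller than the points. Open circles are the CCND1 cells as listed, 98.5 and 88.9 RPKM, and the filled CCND1 points are the values implied by whole reads, 58.5 and 48.9 RPKM.

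CCND1 encodes cyclin D1, the main partner of CDK4 in many epithelial cells, and lies on the plus strand of chromosome 11 (69455873 to 69469242) in hg19, the build of all gene positions here unless another is named. Its listed values are 39.2 RPKM in the si-Control library, 98.5 RPKM in the #1 library and 88.9 RPKM in the #2 library, log2 ratios of 1.31 and 1.16. These cells do not give the fold change written in the same row, and they correspond to whole reads at no gene length up to 50000 nt. Of 23750 genes with a comparison in the table, 17 do not give their own fold change, and CCND1 was the only one of them among the 10. Values with the listed decimals that give both whole reads and the row's own comparison were found in 1 way with 2 of the 3 cells changed, and in 1 further way with all 3 changed. The way with all 3 changed also alters the si-Control value, and its values are not given here. On the untested assumption that the fewest cells were changed, the values with 2 cells changed are used here. They are 39.2 RPKM (6210 reads), 58.5 RPKM (10149 reads) and 48.9 RPKM (7618 reads), and both si-RBCK1 cells as listed lie 40 RPKM above them.

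With the implied values, the log2 ratios of CCND1 were 0.57 (#1) and 0.31 (#2), with counting intervals from 0.53 to 0.62 and from 0.27 to 0.37. Both versions were higher than si-Control, but only the listed version was at least 2-fold higher. The implied values rest on the fold change in the authors' table, so they are not independent of it. The text of the study does not name CCND1. A display of CCND1 drawn from these same libraries would be no independent evidence of its direction.

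CCND3, cyclin D3, lies on the minus strand of chromosome 6 (41902671 to 42016632). It was at 15.2 RPKM in the si-Control library (1769 reads), 30.5 RPKM in the #1 library (3904 reads) and 34.8 RPKM in the #2 library (3993 reads). Both si-RBCK1 libraries were far above si-Control and the #2 library was somewhat above the #1 library, with log2 ratios of 0.97 and 1.15 and counting intervals from 0.93 to 1.09 and from 1.12 to 1.28. CCND2, the other D-type cyclin, was listed at 0.012, 0 and 0.025 RPKM, so that nearly all D-type cyclin mRNA came from the other two genes. With implied CCND1 values, the summed RPKM of CCND1 and CCND3 was 54.4, 89.0 and 83.6, and the share of CCND3 in it was 27.9%, 34.3% and 41.6%. As listed, the sums were 54.4, 129 and 124 RPKM and the CCND3 share was 27.9%, 23.7% and 28.1%, so the CCND3 share was above that of si-Control in both si-RBCK1 libraries only with the implied values, and with the listed ones it was lower in the #1 library.

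The E-type cyclins activate CDK2. CCNE1, on the plus strand of chromosome 19 (30302901 to 30315224), was at 7.84 RPKM in the si-Control library (566 reads), 21.8 RPKM in the #1 library (1728 reads) and 13.3 RPKM in the #2 library (945 reads). It was higher with both siRNAs but further with #1, the log2 ratios being 1.37 and 0.69 and the counting intervals from 1.34 to 1.62 and from 0.61 to 0.92. CCNE2, on the minus strand of chromosome 8 (95892452 to 95907482), was at 2.59, 8.86 and 9.999 RPKM in the same order of libraries, from 261, 977 and 991 reads. Its log2 ratios of 1.46 and 1.61 were at percentiles 99.3 and 99.6 of the 12403 genes, and the counting intervals on reads were from 1.58 to 1.98 and from 1.75 to 2.15.

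The E-type cyclins together had 10.4 RPKM in the si-Control library, 30.7 RPKM in the #1 library and 23.3 RPKM in the #2 library. CCNE2 made up 24.9% of this sum with si-Control, 28.9% with si-RBCK1 #1 and 42.9% with si-RBCK1 #2. The ratio of CCNE1 to CCNE2 in RPKM was thus 3.02, 2.47 and 1.33. Set against CDK2, their kinase partner, the summed E-type cyclins had an RPKM ratio of 0.471, 1.08 and 0.960. The end of CCNE2 shares 270 nt with INTS8 on the opposite strand, which was at 13.4, 15.5 and 14.4 RPKM. An antisense gene that shares 462 nt with CCNE2 was at 0.176, 0.856 and 0.476 RPKM, higher with both siRNAs as CCNE2 was. A pseudogene on the opposite strand that shares 943 nt is listed at 0 in all 3 libraries. The library kit is directional, but the strand setting of the counting is not given in the sources used here, and reads from such a partner were not separated.

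**Figure D2:**
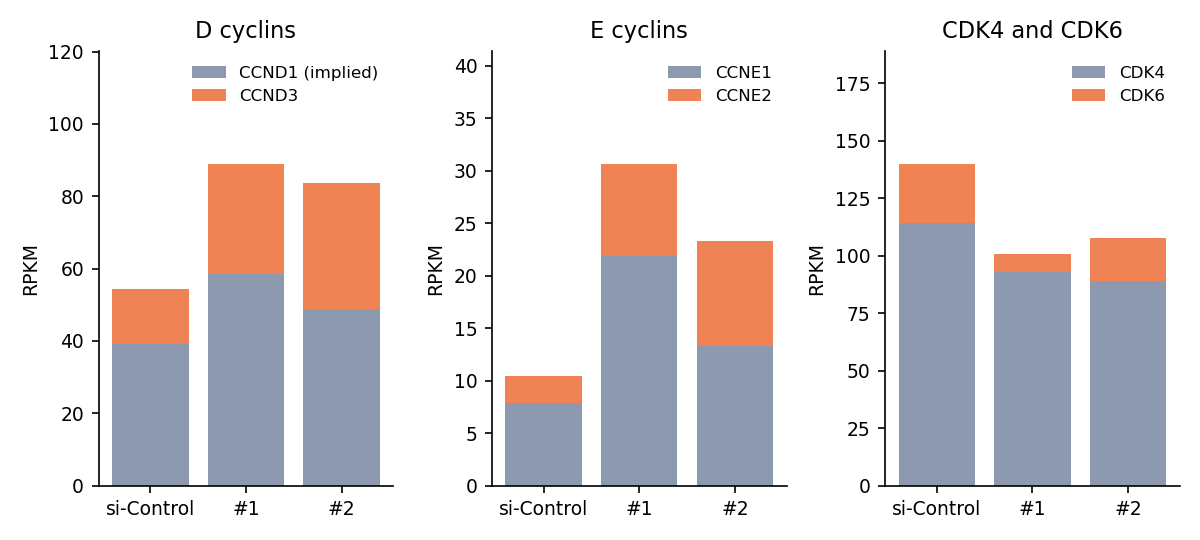
Summed RPKM of paralogous genes in each library, with CCND1 at its implied values. The E-type cyclins go from 10.4 RPKM to 30.7 and 23.3 RPKM, while CDK4 and CDK6 together go from 140.1 RPKM to 100.8 and 107.6 RPKM and CDK6 is 7.98% of the bar for si-RBCK1 #1, against 18.5% for si-Control.

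Among the kinases, CDK4 had the most mRNA per length in every library, and the most of all 10 genes with CCND1 at its implied values. With CCND1 as listed, CCND1 was above CDK4 in the #1 library and about level with it in the #2 library. It lies on the minus strand of chromosome 12 (58141510 to 58146230) and was at 114 RPKM in the si-Control library (8444 reads), 92.7 RPKM in the #1 library (7507 reads) and 88.9 RPKM in the #2 library (6469 reads). The difference was small and close to equal with both siRNAs, with log2 ratios of -0.30 and -0.36 and counting intervals from -0.35 to -0.26 and from -0.41 to -0.31. TSPAN31 overlaps CDK4 by 517 nt on the opposite strand and was at 16.7, 14.1 and 12.8 RPKM. CDK2, the partner of cyclin E on the plus strand of chromosome 12 (56360553 to 56366573), was at 22.1, 28.5 and 24.3 RPKM, from 1882, 2649 and 2030 reads. Its log2 ratios were 0.35 and 0.13, at percentiles 76.0 and 57.9 of all genes, with counting intervals from 0.28 to 0.45 and from 0.041 to 0.22. An antisense gene that shares 637 nt with CDK2 was at 1.49, 0.744 and 2.19 RPKM.

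CDK6, the relative of CDK4 that binds the same D-type cyclins, lies on the minus strand of chromosome 7 (92234235 to 92465941). It was at 25.9 RPKM in the si-Control library (11238 reads), 8.04 RPKM in the #1 library (3823 reads) and 18.7 RPKM in the #2 library (7974 reads). Both si-RBCK1 libraries were below si-Control, but the library with si-RBCK1 #1 stood far below both others. The log2 ratios to si-Control were -1.57 and -0.45, at percentiles 0.532 and 14.2. On reads, without the pseudocount, they were -1.69 and -0.47, with counting intervals from -1.74 to -1.63 and from -0.51 to -0.43. Between the siRNAs, which does not involve the si-Control library, the log2 ratio of #2 to #1 was 1.12 (interval on reads 1.16 to 1.27), at percentile 99.5. CDK6 was the only one of the 10 genes that differed at least 2-fold between the siRNAs, where 1.38% of all genes did. CDK4 exceeded CDK6 4.41-fold in RPKM with si-Control, 11.5-fold with si-RBCK1 #1 and 4.77-fold with si-RBCK1 #2.

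The siRNA sense strands are given here because, among the 10 genes, the siRNAs differ most in their CDK6 values. Capitals mark the bases that an mRNA must hold to pair with the seed, guide bases 2 to 8.
si-RBCK1 #1: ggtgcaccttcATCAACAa
si-RBCK1 #2: ggattaccagcGATTTCTa
The longest protein-coding CDK6 transcript in GENCODE v29 (11612 nt) held 0 matches to the seed of si-RBCK1 #1 and 1 match to that of si-RBCK1 #2. Among 480 expressed genes whose longest transcript was 80% to 125% as long, 52.5% held a match for #1 and 66.2% for #2. CCNE1, the member with the next largest difference between the siRNAs (log2 ratio of #2 to #1 -0.68, interval -0.83 to -0.60), also held 0 matches for #1 and 1 for #2. E2F8 was the only one of the 10 with a match for #1, and CCNE2, E2F1 and RB1 held 1 match each for #2. The full siRNA sequences were found in 0 of the 10 transcripts. Of 10568 expressed genes, 23.8% held a match for #1 and 29.2% for #2. A part of seed pairing in any of these differences was not tested.

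E2F1, the activating E2F on the minus strand of chromosome 20 (32263292 to 32274210), was at 7.83 RPKM in the si-Control library (781 reads), 20.2 RPKM in the #1 library (2206 reads) and 18.6 RPKM in the #2 library (1829 reads). Both si-RBCK1 libraries lay close together and well above si-Control, with log2 ratios of 1.26 and 1.15 and counting intervals from 1.25 to 1.49 and from 1.13 to 1.37. E2F8, on the minus strand of chromosome 11 (19245610 to 19263202), had the lowest level of the 10 genes in every library, 0.894, 1.97 and 2.75 RPKM from 131, 316 and 397 reads. On the log2(RPKM + 1) scale its ratios were 0.65 and 0.99, while on reads they were 1.14 (interval 0.84 to 1.44) and 1.62 (interval 1.33 to 1.92). An antisense gene spans E2F8 and is listed at 0 in all 3 libraries.

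Promoter windows of E2F1 and CCNE1, genes with higher values in both si-RBCK1 libraries, are shown because E2F proteins are known to act at both genes. The windows run from 250 bases before to 50 bases after the start site in RefSeq (GRCh38.p14), and capitals mark matches to the E2F-type motifs TTTCCCGC, TTTGGCGC, TTTCGCGC or TTTGCCGC on either strand.
E2F1, chr20:33686336-33686635, minus strand: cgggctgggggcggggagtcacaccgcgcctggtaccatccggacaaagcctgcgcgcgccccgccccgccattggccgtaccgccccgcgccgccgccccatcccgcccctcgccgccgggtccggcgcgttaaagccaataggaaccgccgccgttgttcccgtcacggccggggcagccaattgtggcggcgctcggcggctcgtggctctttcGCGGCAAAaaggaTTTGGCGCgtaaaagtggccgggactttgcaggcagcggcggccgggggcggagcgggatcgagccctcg
CCNE1, chr19:29811741-29812040, plus strand: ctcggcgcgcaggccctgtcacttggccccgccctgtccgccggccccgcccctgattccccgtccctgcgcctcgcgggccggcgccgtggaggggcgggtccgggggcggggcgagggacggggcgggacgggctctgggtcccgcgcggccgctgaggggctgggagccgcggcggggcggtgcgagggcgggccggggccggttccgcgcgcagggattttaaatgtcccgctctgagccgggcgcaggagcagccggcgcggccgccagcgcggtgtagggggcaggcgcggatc
The E2F1 window held 2 matches that do not overlap, GCGGCAAA (TTTGCCGC on the other strand) beginning 33 bases and TTTGGCGC beginning 20 bases before the start site. The CCNE1 window held 0 matches to these letters. A match was present in 3.31% of all 35116 windows in the table and in 24 of 47 windows (51.1%) of the E2F target list used below. The 10 genes had 9 windows from 6 genes, of which the RB1 window lies at a start inside the gene, and the E2F1 window was the only 1 of the 9 with a match. CCND1, CCNE2, CDK2 and E2F8 were not searched. A match is a sequence feature and not evidence of binding.

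RB1, the retinoblastoma pocket protein that restrains E2F, lies on the plus strand of chromosome 13 (48877883 to 49056026). It was at 22.5 RPKM in the si-Control library (3970 reads), 15.9 RPKM in the #1 library (3065 reads) and 16.8 RPKM in the #2 library (2915 reads). The library values with the siRNAs were nearly equal and below si-Control, with log2 ratios of -0.48 and -0.40 and counting intervals from -0.57 to -0.44 and from -0.49 to -0.35. The ratio of E2F1 to RB1 in RPKM was 0.348 with si-Control, 1.27 with si-RBCK1 #1 and 1.11 with si-RBCK1 #2, so that E2F1 went from below to above RB1. The RB1 relatives RBL1 (3.42, 4.43 and 4.07 RPKM) and RBL2 (12.8, 14.2 and 14.2 RPKM) were not lower with either siRNA. Their log2 ratios were 0.30 and 0.20 for RBL1 and 0.14 and 0.14 for RBL2. RB1 holds the gene LPAR6 on the opposite strand, at 0.556, 0.386 and 0.732 RPKM.

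**Figure D3:**
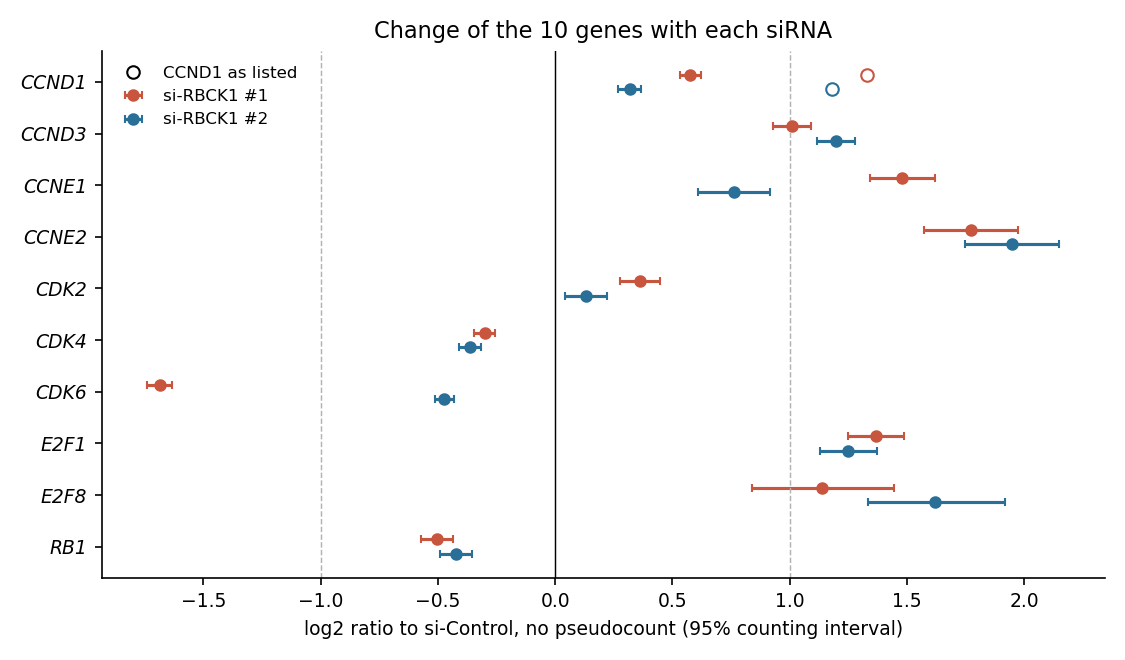
Log2 ratios of the 10 genes, each si-RBCK1 library over si-Control, computed on reads without a pseudocount, with 95% counting intervals as bars and dashed lines at 2-fold. CDK6 with si-RBCK1 #1 stands far to the left of its point for si-RBCK1 #2, and the open circles for CCND1 as listed stand apart from the filled points at the implied values.

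Levels per length also set the order of the 10 genes. With CCND1 at its implied values, the order with si-Control was CDK4, CCND1, CDK6, RB1, CDK2, CCND3, CCNE1, E2F1, CCNE2 and E2F8. The counting intervals of RB1 and CDK2 overlapped, as did those of CCNE1 and E2F1. With si-RBCK1 #1 the order was CDK4, CCND1, CCND3, CDK2, CCNE1, E2F1, RB1, CCNE2, CDK6 and E2F8, with overlapping intervals for CCNE1 and E2F1. With si-RBCK1 #2 it was CDK4, CCND1, CCND3, CDK2, CDK6, E2F1, RB1, CCNE1, CCNE2 and E2F8. CDK6 thus went from rank 3 to rank 9 with si-RBCK1 #1 and to rank 5 with si-RBCK1 #2, where its interval overlapped that of E2F1.

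Of the 10 genes, 7 were higher and 3 lower with both siRNAs, where 43.3% and 38.2% of all genes were. Among them, 3 as listed (CCND1, CCNE2 and E2F1) were at least 2-fold higher with both siRNAs on the log2(RPKM + 1) scale, where 1.46% of all genes were. With implied CCND1 values there were 2. At least 2-fold lower with both were 0 (background 1.41%). At least 1.5-fold higher with both were 6 (background 7.47%), among them CCND1 only as listed and not at its implied values. With si-RBCK1 #1 alone, 4 genes as listed, or 3 with implied CCND1 values, were at least 2-fold higher (background 2.91%). CDK6 was the only one at least 2-fold lower (background 3.27%). With si-RBCK1 #2 alone, 4 as listed, or 3 with implied CCND1 values, were at least 2-fold higher (background 2.5%). At least 2-fold lower were 0 (background 2.27%). Counting intervals lay above 0 with both siRNAs for 6 of the 9 genes with whole reads, where 32% of all genes did so, and below 0 for the other 3, where 27.7% did. Between the siRNAs, the interval of the ratio of #2 to #1 excluded 0 for all 9, where it did for 62.5% of all genes. The median log2 ratio of the 10 genes was 0.81 with si-RBCK1 #1 and 0.84 with si-RBCK1 #2, beside 0.019 and 0.035 for all genes. With implied CCND1 values the medians were 0.61 and 0.50. E2F8 is among the 7 higher, the 6 at least 1.5-fold higher and the 6 with intervals above 0, and it enters the medians. It passed the filter only through its higher si-RBCK1 values, so its place in these counts is no support. The genes were chosen with results of these libraries known, so these counts describe them and test nothing.

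**Figure D4:**
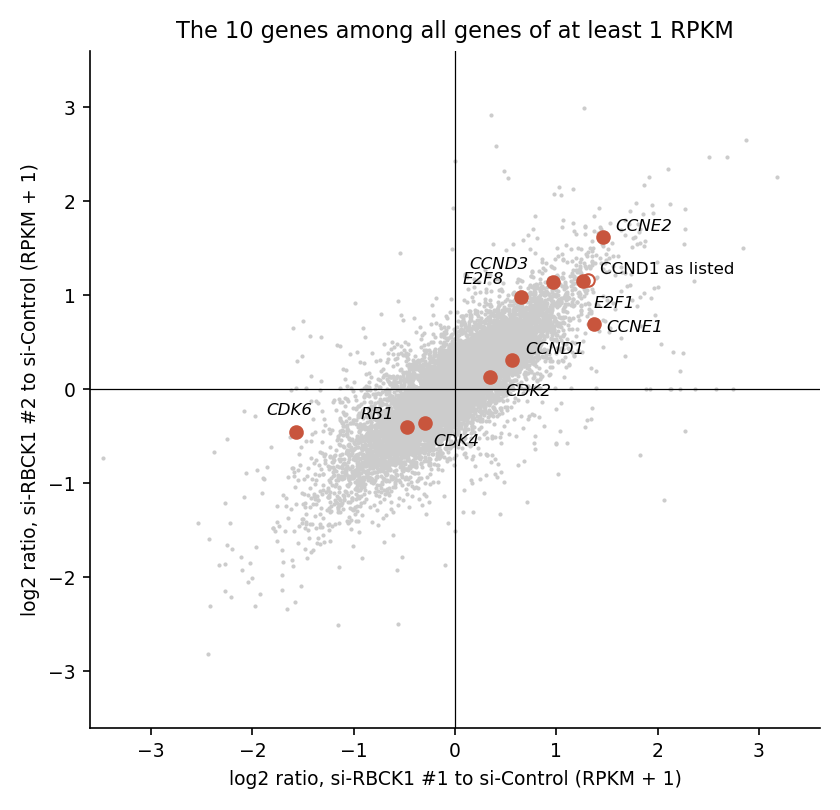
Log2 ratios on the log2(RPKM + 1) scale with si-RBCK1 #1 (x axis) and si-RBCK1 #2 (y axis) for the 12403 genes of at least 1 RPKM (grey) and the 10 genes (red, CCND1 filled at its implied values and open as listed). Both axes share the si-Control library. CCNE2 lies far up the diagonal, and CDK6 lies left of it at -1.57 and -0.45.

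The other genes of G1 to S control had medians near 0. Of 30 genes, 27 reached 1 RPKM, with median log2 ratios of 0.057 and -0.018, and 12 (44.4%) were higher and 11 (40.7%) lower with both siRNAs, shares near the 43.3% and 38.2% of all genes. On the log2(RPKM + 1) scale, 0 of them were at least 2-fold higher or lower with both siRNAs. Of all genes, 1.46% and 1.41% were, less than 1 gene of 27 at the background share. In RPKM without the pseudocount, SKP2 was 2.41-fold and 2.65-fold higher, and CCNH had 49.2% and 49.5% of its si-Control level. TFDP1, which pairs with E2F proteins on DNA, was at 27.5, 52.5 and 45.5 RPKM, log2 ratios of 0.91 and 0.71. CDC25A, the phosphatase that activates CDK2, was at 3.94, 13.3 and 6.74 RPKM, log2 ratios of 1.53 and 0.65, and like CCNE1 it was further above si-Control with si-RBCK1 #1 than with #2.

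The other E2F genes had ratios closer to 0 than those of E2F1. E2F3 (15.2, 15.9 and 15.3 RPKM) and E2F4 (44.6, 43.7 and 45.4 RPKM) had counting intervals that held 0 with both siRNAs. E2F7, the closest relative of E2F8, was at 12.2, 16.4 and 14.9 RPKM, log2 ratios of 0.40 and 0.27. E2F5 was lower, at 16.9, 12.2 and 9.04 RPKM, log2 ratios of -0.44 and -0.84, and E2F6 was at 9.42, 13.1 and 9.29 RPKM, log2 ratios of 0.44 and -0.018. E2F2 did not reach the filter, at 0.459, 0.795 and 0.917 RPKM.

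Some list genes were singled out only after their values were seen. CDK7, CCNH and MNAT1 form the kinase that activates CDK2 and CDK4, and all 3 were lower with both siRNAs, with log2 ratios of -0.36 and -0.39 for CDK7, -0.99 and -0.98 for CCNH and -0.75 and -0.68 for MNAT1. SKP2, which marks CDK inhibitors for degradation, was at 2.29, 5.51 and 6.07 RPKM, log2 ratios of 0.99 and 1.10.

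Among CDK inhibitors, 5 of 7 reached 1 RPKM. CDKN1A (p21) is listed at 117, 504 and 593 RPKM, but its row also fails its own comparison. Unlike the listed values of CCND1, those of CDKN1A do correspond to whole reads, so they fail only against the fold change in the row. The implied CDKN1A value with si-RBCK1 #2 is 293 RPKM, a log2 ratio of 1.32 in place of 2.34. CDKN1C (p57), chosen after its values were seen, was the only one lower with both siRNAs. It was at 10.2, 1.67 and 5.03 RPKM, and like CDK6 it was lower with si-RBCK1 #1 than with #2. CDKN2C, chosen in the same way, was higher, at 3.28, 6.15 and 8.21 RPKM, log2 ratios of 0.74 and 1.11. CDKN2D was also higher with both siRNAs, and CDKN1B had log2 ratios of 0.070 and -0.15.

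E2F target genes of S phase entry were higher as a list. Of 39 genes, 38 reached 1 RPKM, and their median log2 ratios were 0.86 with si-RBCK1 #1 and 0.85 with si-RBCK1 #2. With both siRNAs, 36 were higher and 1 (CDK1) was lower, beside 43.3% and 38.2% of all genes, and 16 were at least 2-fold higher, or 15 with the implied values of TYMS, beside the 1.46% of all genes given above. RRM2, the regulated subunit of ribonucleotide reductase, was at 12.6, 64.3 and 50.2 RPKM, log2 ratios of 2.27 and 1.92. ORC1, a subunit of the origin recognition complex, was at 1.67, 8.61 and 8.73 RPKM, log2 ratios of 1.85 and 1.87. MCM10 had log2 ratios of 1.76 and 1.61, MCM4 1.67 and 1.80, PCNA 1.74 and 1.51, MCM2 1.32 and 1.31, and CHAF1A 1.33 and 1.30.

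The list genes closest to CCNE2 in both log2 ratios, out of 116, were CDT1 (1.53 and 1.77, distance 0.169), MCM5 (1.32 and 1.47, distance 0.206) and MCM3 (1.36 and 1.42, distance 0.222). CDT1 loads the MCM helicase onto DNA, and MCM3 and MCM5 are subunits of it. The likeness rests on 2 ratios from 3 libraries.

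Cyclins and kinases of G2 and mitosis lay on both sides of 0. The 15 genes had median log2 ratios of 0.099 and 0.086, with 9 (60.0%) higher and 5 (33.3%) lower with both siRNAs, beside 43.3% and 38.2% of all genes. CDK1 and CCNB2, chosen after their values were seen, were lower, with log2 ratios of -0.46 and -0.30 for CDK1 and -0.86 and -0.86 for CCNB2. MKI67 (0.87 and 1.03) and CCNB1 (0.55 and 0.64), chosen in the same way, were higher. The 12 genes of the DREAM and MuvB complex had medians of 0.18 and 0.15. Of 25 cyclins and CDKs outside the G1 to S switch, 23 reached 1 RPKM and had medians of 0.084 and -0.069, with 10 higher and 10 lower with both siRNAs, 43.5% each way beside 43.3% and 38.2% of all genes.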

How the data were processed

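RNA from 3 Caki-1 cultures was sequenced, 1 library per condition. Per the extract protocol, ribosomal RNA was removed and a directional kit was used with paired-end reads. The submitters' processing notes name FastQC, Trimmomatic, TopHat2, HTSeq and build hg19. The authors deposited RPKM values for 44591 genes, with 1 entry that is not a number. The deposited table also holds the authors' own comparison (fold change, p and q with the values compared), of which the log2 fold change was used only to check each row within 1e-06 and to find implied values, and no such value is reported.

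The 12403 genes averaging 1 RPKM or more were kept, a pseudocount of 1 RPKM was added before taking log2, and a fold limit of 2 was used for counts. With 1 library per condition there was no test, and depth limits only the counting error. Library totals were found from genes of up to 200 nt, whose commonest value is that of 1 read. For each gene the smallest whole reads that give its 3 values within 0.001 read were sought at lengths of up to 50000 nt, and 12359 genes (99.6%) had them with every ratio defined. Intervals (95%) were exact Clopper-Pearson for ratios and exact Poisson for levels, and since reads without molecular identifiers are not independent molecules they cover counting error only. Implied values were sought for CCND1, CDKN1A, TYMS and CCNG1, the 4 genes of the lists whose rows fail. The recovery of totals, reads and implied values was tested on simulated data, and the outcome is not given here. The simulated search for implied values was narrower than the one used on the data, so it cannot show how that wider search performs.

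The 10 genes and the lists were chosen with earlier results of these data known. Named genes were RBCK1, the 10 genes, CCND2, E2F2 to E2F7, RBL1, RBL2, TFDP1, CDC25A, up to 10 genes per list at least 2-fold changed the same way with both siRNAs, and the 3 genes nearest to CCNE2. Alternatives were other scalings, pseudocounts, filters, fold limits, protein-coding genes only, means, and the treatment of rows that fail. Promoter sequences came from the RefSeq table (GRCh38.p14). The work was done in Python 3.11.15 with pandas 2.3.3, numpy 2.4.6, matplotlib 3.10.9 and scipy 1.17.1.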

Additional observations from a re-analysis of the deposited data

How the results depend on the processing

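No paired analysis was possible because the si-Control, #1 and #2 libraries are single. The ratios have their si-Control library in common, so how that culture differs from others and what the siRNAs do cannot be told apart. For the log2 ratios of RBCK1 and the 10 genes, each counted once per alternative, 35 values lay further from the reported one than the ends of its counting interval lie from that interval's middle, and 133 did not, and 0 changed sign.

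The direction of each sum of paralogs held under all alternatives. For CCND1 as listed with CCND3, the log2 ratios of summed RPKM were 1.23 (#1) and 1.17 (#2) at the main settings. With si-RBCK1 #1 the ratio became 1.18 with equal total RPKM. With si-RBCK1 #2 it became 1.12 with equal medians and 1.13 with size factors. The values were 1.18 and 1.12 with a pseudocount of 5 RPKM, and 0.70 and 0.61 with implied values. For CDK4 with CDK6 the ratios were -0.47 (#1) and -0.38 (#2) at the main settings. They became -0.53 with si-RBCK1 #1 (equal total RPKM) and -0.43 and -0.42 with si-RBCK1 #2 (equal medians, size factors). For the E-type cyclins the ratios were 1.47 and 1.09 at the main settings, and 1.21 and 0.87 with a pseudocount of 5 RPKM.

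Among the 10 genes, the count at least 2-fold higher with both siRNAs became 5 when 0.1 RPKM was added, 1 when 5 RPKM was added, 6 at a limit of 1.5-fold and 0 at 4-fold. With 5 RPKM, 2 were higher with #1 and 1 with #2. These counts use CCND1 as listed, and CCND1 was the 1 gene higher with both siRNAs when 5 RPKM was added. The implied CCND1 values gave log2 ratios of 0.57 and 0.31, below 1.5-fold with both siRNAs. At 4-fold, 0 were higher or lower with either siRNA.

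Over all genes, counts are given as si-RBCK1 #1, si-RBCK1 #2 and both. Higher genes were 616, 563 and 346 with a pseudocount of 0.1 RPKM, 114, 101 and 66 with 5 RPKM, 1499, 1400 and 926 at 1.5-fold, and 24, 17 and 5 at 4-fold. Lower genes were 730, 522 and 327, then 105, 97 and 59, then 1435, 1156 and 774, and then 23, 14 and 6 in the same order of settings. With a mean of at least 5 RPKM, 237 were higher with si-RBCK1 #1, and 218, 174 and 112 were lower. Other limits, filters and pseudocounts change counts by construction.

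Medians of lists stayed within the order-statistic interval of the main median in 135 cases, moved in 1 and changed sign in 4. With si-RBCK1 #2, the median of other G1 to S genes became 0.0018 with no filter and 0.0091 as a mean, and that of cyclins and CDKs outside the switch became 0.047 with no filter and 0.10 with a mean of at least 5 RPKM. The E2F target median with si-RBCK1 #1 was 0.67 with a pseudocount of 5 RPKM. The cause was not tested. Counts and medians with implied values were added after seeing the data.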
